A study of Mus musculus with 4 samples.

Results

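Matricellular proteins are secreted into the extracellular matrix, where they tune how cells hold on to collagen and fibronectin instead of forming the main scaffold themselves. In teeth they are best known from the dental papilla, the dental follicle and the periodontal ligament, the fibrous tissue that suspends the root in its socket. The set described here holds 10 genes, chosen by name: the SPARC family members Sparc and Sparcl1, the tenascins Tnc and Tnn, the fasciclin-domain proteins Postn and Tgfbi, the thrombospondins Thbs1, Thbs2 and Thbs4, and Fn1. Fn1 encodes fibronectin, a structural adhesive glycoprotein to which several of the other members bind. These genes were taken from 18194 genes named on the array, and every probe set naming exactly 1 of them was used, which gave 20 of 45101 probe sets. All 10 genes were found, with 1 to 4 probe sets each.

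The RNA came from hand-dissected molars of untreated Swiss-Webster pups of both sexes, aged between postnatal day 1 and day 10, with the teeth of 60 pups combined into 1 pool. That pool was measured on 4 Affymetrix Mouse Genome 430 2.0 arrays, on which each probe set of short oligonucleotides gives 1 signal intensity. The arrays form a single group, so there is no treatment, genotype, age or tissue contrast to test, and the other tissues against which the study's design sets the molar data were not analysed here. Because the arrays share a pool, every SD below is technical and says nothing about differences between pups. A pool also cannot separate many cells with little of a transcript from few cells with much of it.

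The question open to these arrays is which members gave a signal above background, and how steady that signal was. The background threshold of an array was the 95th percentile of 84 probe sets naming a single olfactory, vomeronasal or taste receptor gene, and it lay between 1006 and 1297 signal units over the 4 arrays. A probe set was called above background when it exceeded the threshold on every array, and a gene when any of its probe sets did. The defining enamel and dentin genes of the labelled tissue, Amelx, Ambn, Enam, Dspp and Dmp1, all passed (5 of 5), with Amelx (amelogenin) at 198666 ± 42644 and Ambn (ameloblastin) at 167142 ± 28027 (SD, n = 4 arrays). Mean correlations of an array with the other 3, over log2 signals of probe sets above background, ranged from 0.972 (array 4) to 0.977. Brightness depends on the probes as well as on the transcript, so signals of different probe sets are given side by side and are not ranked as amounts of mRNA.

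All 10 members were above background, where 51.6% of all 18194 genes were. By probe set the count was 17 of 20, where 42.4% of the 34958 probe sets naming 1 gene passed. The log2 ratio of signal to threshold was also tested with limma (one-sided, with Benjamini-Hochberg adjustment over all 45101 probe sets). The p-values of this test reflect technical spread between arrays of 1 pool, not differences between pups. They take the threshold of each array as fixed. This test called the same 10 genes and 17 probe sets, beside 50.9% of genes and 41.8% of probe sets. A gene with more probe sets has more chances to pass, and the share of genes above background ran from 35.2% with 1 probe set to 82.0% with 4 or more. The 4 members with 1 probe set, Sparcl1, Tnn, Postn and Thbs4, all passed. The median log2 signal of the members, taking each gene's brightest probe set, was 14.55, beside 10.69 over all genes and 12.24 over the 9388 genes above background. The members were not drawn at random and were chosen with earlier results of these data known. The counts and medians of the members are therefore a description. The 51.6% of all genes also stands beside the counts of marker genes below.

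**Figure D1:**
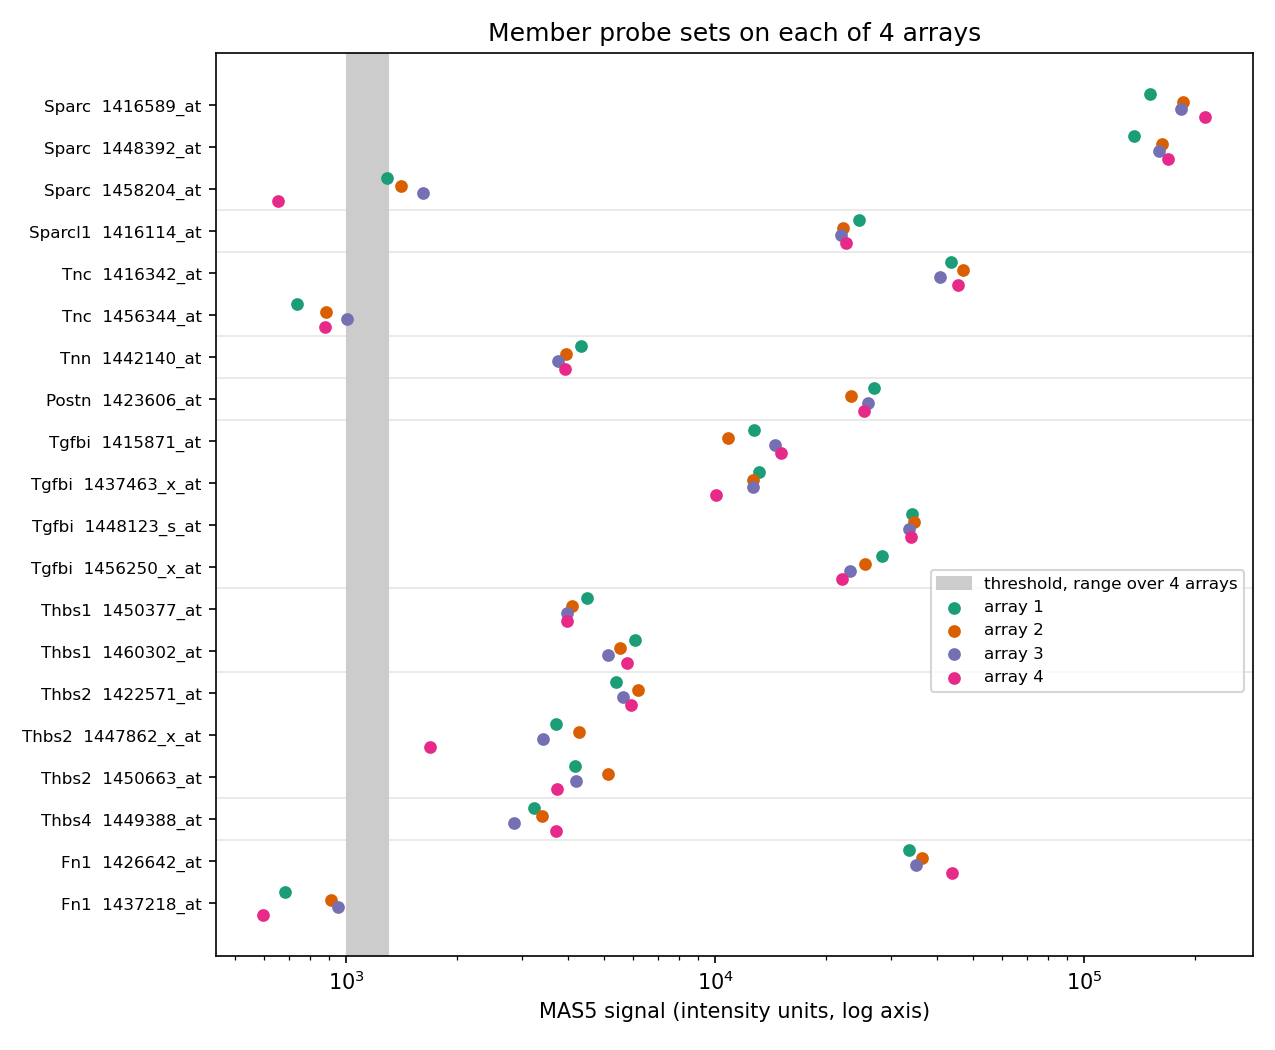
Signal of the 20 member probe sets (rows) on each of the 4 arrays (coloured points, log axis), with the grey band showing the threshold range of 1006 to 1297 units. Each of the 10 genes has at least 1 probe set with all points to the right of the band, and 1 probe set each of Sparc, Tnc and Fn1 does not.

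Sparc, also known as osteonectin, encodes a collagen-binding glycoprotein abundant in dentin and bone. It had 3 probe sets, of which 2 were above background. Probe set 1416589_at read 150997, 184919, 182796 and 212985 on arrays 1 to 4, and 1448392_at read 136300, 162867, 159547 and 168674. Both were lowest on array 1 and highest on array 4, and every reading was at least 123-fold over the threshold of its array. The first lay 156-fold above the threshold on average (limma adjusted p = 2.53e-15). Probe set 1458204_at, which also names Sparc, read 1289, 1410, 1615 and 654. It exceeded the threshold on arrays 1, 2 and 3 and fell under it on array 4, so it was not called, and its ratio to the threshold averaged 1.01.

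Sparcl1 encodes hevin, the closest relative of SPARC, known as an anti-adhesive protein of vessels and brain. Its single probe set, 1416114_at, read 24590, 22130, 21965 and 22610 on arrays 1 to 4. The 4 values lay within 1.12-fold of each other and averaged 19.6-fold over the threshold (limma adjusted p = 2.02e-14). Among marker lists of cells that could contribute to the pool, endothelial genes were above background for 8 of 8, with Egfl7 at 7975 ± 377 and Esam at 4769 ± 722, and their summed signal ranged from 30335 to 31197 over the arrays. Glial genes passed for 2 of 5 measured, Mbp at 4957 ± 881 and Sox10 at 1968 ± 530, while the astrocyte genes Gfap (536 ± 535) and Aldh1l1 (961 ± 156) did not, and the summed signal ranged from 7537 to 11514. The part of these cells in the Sparcl1 signal was not tested.

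The tenascins are large multimeric glycoproteins. Tnc, tenascin-C, is made by condensing mesenchyme around epithelial buds and by tendons and ligaments. Its probe set 1416342_at read 43443, 46906, 40699 and 45594, a spread of 1.15-fold and an average of 38.0-fold over the threshold (limma adjusted p = 4.59e-15). The other Tnc probe set, 1456344_at, read 734, 881, 1006 and 876 and stayed under the threshold on all 4 arrays. Tnn encodes tenascin-N, called tenascin-W in the older literature and found in bone and periosteum. Its probe set 1442140_at read 4318, 3930, 3757 and 3906, between 2.90-fold and 4.29-fold over the threshold of the same array (limma adjusted p = 4.58e-09). The lowest Tnn reading lay above the highest threshold of any array.

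Periostin, the product of Postn, carries fasciclin domains, binds collagen and fibronectin, and is a classical marker of the periodontal ligament and periosteum. Postn was read by 1423606_at at 27006, 23380, 25929 and 25235 on arrays 1 to 4. These values averaged 21.8-fold over the threshold with a 1.16-fold spread (limma adjusted p = 1.15e-14). Tendon and ligament markers were mixed beside it. Fmod (fibromodulin, 19089 ± 1637), Tnmd (tenomodulin, 6850 ± 955) and Aspn (asporin, 4089 ± 359) were above background. The transcription factor genes Scx (603 ± 296) and Mkx (797 ± 70.9) exceeded the threshold on 0 arrays. The list's summed signal ranged from 29237 to 32972, and its part in the Postn, Tnc and Thbs4 signals was not tested.

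Tgfbi, named for its induction by TGF-beta, encodes another secreted fasciclin-domain protein that binds integrins and collagen. It had 4 probe sets, and all were above background on every array. Probe set 1448123_s_at read 34050, 34484, 33463 and 33892, and 1456250_x_at read 28378, 25495, 23207 and 22125. Probe set 1415871_at read 12768, 10842, 14528 and 15067, and 1437463_x_at read 13116, 12642, 12688 and 10019. The suffixes _s_at and _x_at mark probes that may match other transcripts. The probe sets did not vary together: array 4 was the highest for 1415871_at and the lowest for both _x_at sets, whereas 1448123_s_at was nearly flat. The probe set without such a suffix lay 11.4-fold over the threshold on average (limma adjusted p = 8.11e-14).

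Thrombospondins are multimeric calcium-binding glycoproteins. Thbs1 and Thbs2 form the trimeric subgroup and inhibit vessel growth, and Thbs1 also activates latent TGF-beta. Thbs1 probe set 1460302_at read 6067, 5516, 5136 and 5782, and 1450377_at read 4506, 4095, 3975 and 3975. They averaged 4.83-fold and 3.56-fold over the threshold (limma adjusted p = 9.89e-11 and 2.85e-09). A further probe set, 1421811_at, names Thbs1 together with Pald1 and was left out of the counts.

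Platelets are a known store of thrombospondin-1. Of 6 platelet and megakaryocyte markers, Pf4 (platelet factor 4, 6251 ± 260) and Gp1bb (1873 ± 436) were above background. Gp9 (167 ± 64.2) and Ppbp (235 ± 158) exceeded the threshold on 0 arrays, and Itga2b (1749 ± 390) and Treml1 (1446 ± 387) on 3. By limma, Itga2b passed too (3 of 6). The list's summed signal ranged from 10994 to 12635. Macrophage markers passed for 6 of 7, with Csf1r at 20413 ± 2425 and Lyz2 at 6475 ± 814, while Aif1 (823 ± 385) did not. Their summed signal ranged from 37818 to 42927. The parts of both cell types in the Thbs1, Fn1 and Tgfbi signals were not tested.

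Thbs2 had 3 probe sets, all above background. Probe set 1422571_at read 5379, 6177, 5641 and 5898 and averaged 4.97-fold over the threshold (limma adjusted p = 3.36e-11), and 1450663_at read 4160, 5120, 4201 and 3726. The third, 1447862_x_at, read 3692, 4286, 3421 and 1684, with array 4 well under the other arrays. Its array 4 value was 1.33-fold over that array's threshold, the narrowest margin among the 17 member probe sets above background.

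Thbs4, a pentameric thrombospondin of tendon and muscle attachments, was read by 1449388_at at 3229, 3399, 2850 and 3707. It averaged 2.83-fold over the threshold and was at least 2.20-fold over it on each array (limma adjusted p = 6.02e-08). Thbs4 had the lowest mean log2 signal of the 10 genes, 11.68, and stood at percentile 64.9 of all genes by brightness. Skeletal muscle markers were above background for 8 of 11, with Acta1 at 20889 ± 1385 and Tnnc2 at 8647 ± 968. The myogenic regulators Myod1 (544 ± 256) and Myog (451 ± 278) exceeded the threshold on 0 arrays, and Des (1442 ± 303) on 3. By the limma test 7 of the 11 passed. Cartilage markers passed for 3 of 8, with Sox9 at 5694 ± 850 and Col2a1 at 4118 ± 918, while Col10a1 was at 75.2 ± 17.4 and Acan at 1238 ± 150. Summed signals ranged from 57601 to 63929 for muscle and from 15010 to 18419 for cartilage, and their part in the Thbs4 signal was not tested.

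Fn1 had a bright and a dim probe set. Probe set 1426642_at read 33470, 36269, 34966 and 43864, highest on array 4, and averaged 31.8-fold over the threshold (limma adjusted p = 4.25e-15). Probe set 1437218_at read 681, 912, 949 and 596, under the threshold on all 4 arrays. Liver is the source of plasma fibronectin. Of 7 liver markers, 0 were above background, and limma also called 0 (0 at an unadjusted p under 0.05). Albumin (Alb) was at 326 ± 254, and the summed signal ranged from 2079 to 3031. The part of liver transcripts in the Fn1 signal was not tested.

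Dim probe sets were common among called genes. Among the 6 members with at least 2 probe sets, Sparc, Tnc and Fn1 had a probe set that was not called (3 of 6). Over all 6160 called genes with at least 2 probe sets, 70.5% had one. The positions of these probe sets within the transcripts were not used here, so whether the dim ones read other exons, introns or transcript ends was not tested.

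The SD of log2 signal ranged from 0.02 for Tgfbi probe set 1448123_s_at to 0.60 for Thbs2 probe set 1447862_x_at, with a median of 0.16 over the 20 probe sets. Each was set beside all probe sets within 0.5 log2 units of its mean brightness, and 12 of 20 had an SD under the median of that neighbourhood, a share close to the even split that a median gives. Over all probe sets above background the median SD was 0.17. For Sparcl1 the SD was 0.07 against a neighbourhood median of 0.12, for Postn 0.09 against 0.12, for Tnc probe set 1416342_at 0.09 against 0.12, and for Tnn 0.09 against 0.18. In the other direction, the SD was 0.21 against 0.13 for Tgfbi probe set 1415871_at, 0.18 against 0.13 for Tgfbi 1437463_x_at, 0.17 against 0.12 for Fn1 1426642_at and 0.58 against 0.32 for Sparc 1458204_at. Tgfbi probe set 1448123_s_at was steadier than nearly all of its neighbours, of which 0.519% had a lower SD. Thbs2 probe set 1447862_x_at stood at the other end, with 99.3% of 5216 neighbours below it. Without array 4 the SD was 0.17 for Thbs2 1447862_x_at, 0.06 for Fn1 1426642_at, 0.16 for Sparc 1458204_at and 0.03 for Tgfbi 1437463_x_at, so these high values rest on that array.

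**Figure D2:**
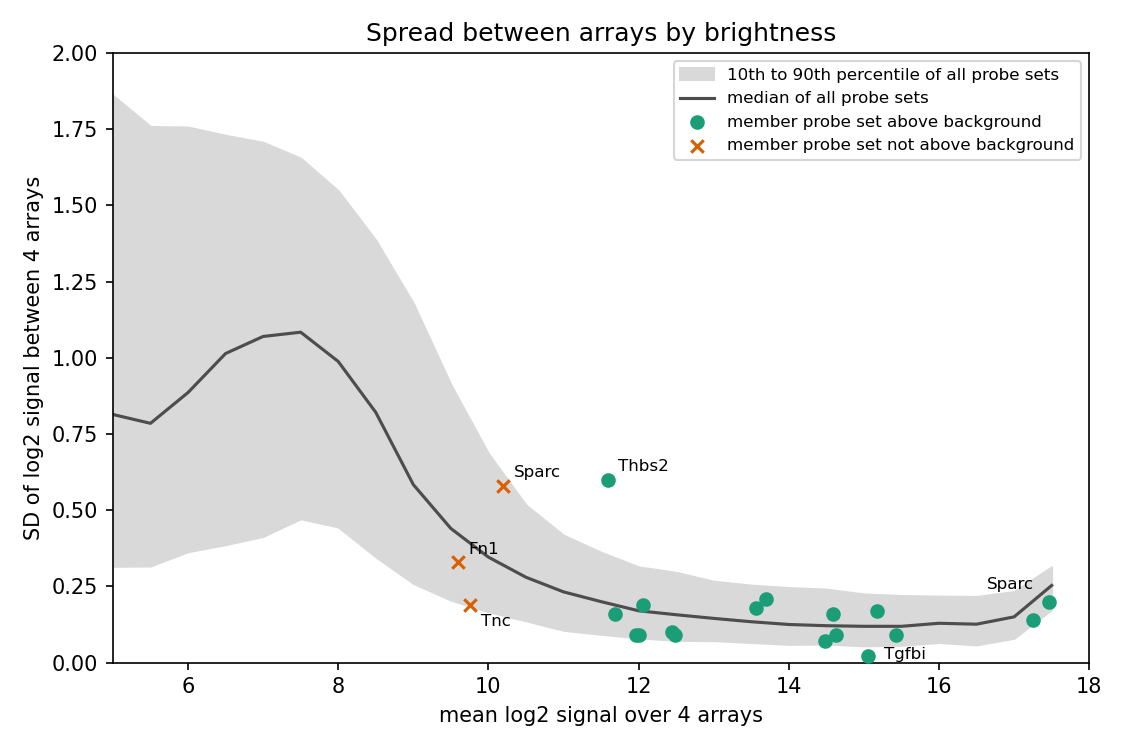
SD of log2 signal between the 4 arrays against mean log2 signal, with the median (line) and the 10th to 90th percentile (grey) of all probe sets and the 20 member probe sets as symbols. Most members lie near or under the line, Thbs2 1447862_x_at (0.60) lies above the grey band, and the dim Sparc probe set (0.58) lies near its upper edge.

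The highest and lowest values of the members did not all fall on 1 array. Of the 17 member probe sets above background, 7 were highest on array 1, 5 on array 2, 0 on array 3 and 5 on array 4. On arrays 1 to 4, 4, 2, 7 and 4 were lowest. The median log2 deviation of these 17 probe sets from the mean lay between -0.03 and 0.03 on each array. The bright Sparc probe sets departed together, with log2 deviations of -0.27 and -0.20 on array 1 and of 0.23 and 0.11 on array 4. Other very bright genes were likewise lowest on array 1 and highest on array 4, among them Col1a1, Col1a2, Amelx, Ambn and Dspp, and the highest signal on an array was 156681 on array 1 and 257968 on array 4. After quantile normalization, which gives the arrays the same distribution of signals, the SD of Sparc 1416589_at was 0.08 in place of 0.20. That of 1448392_at was 0.09 in place of 0.14. Quantile normalization sets each value by its rank on the array. Only 5 genes were brighter than Sparc by mean log2 signal, so the fall in its SD was largely fixed in advance. The SD of Thbs2 1447862_x_at was 0.60 before and 0.55 after, and that of Fn1 1426642_at 0.17 before and 0.14 after.

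**Figure D3:**
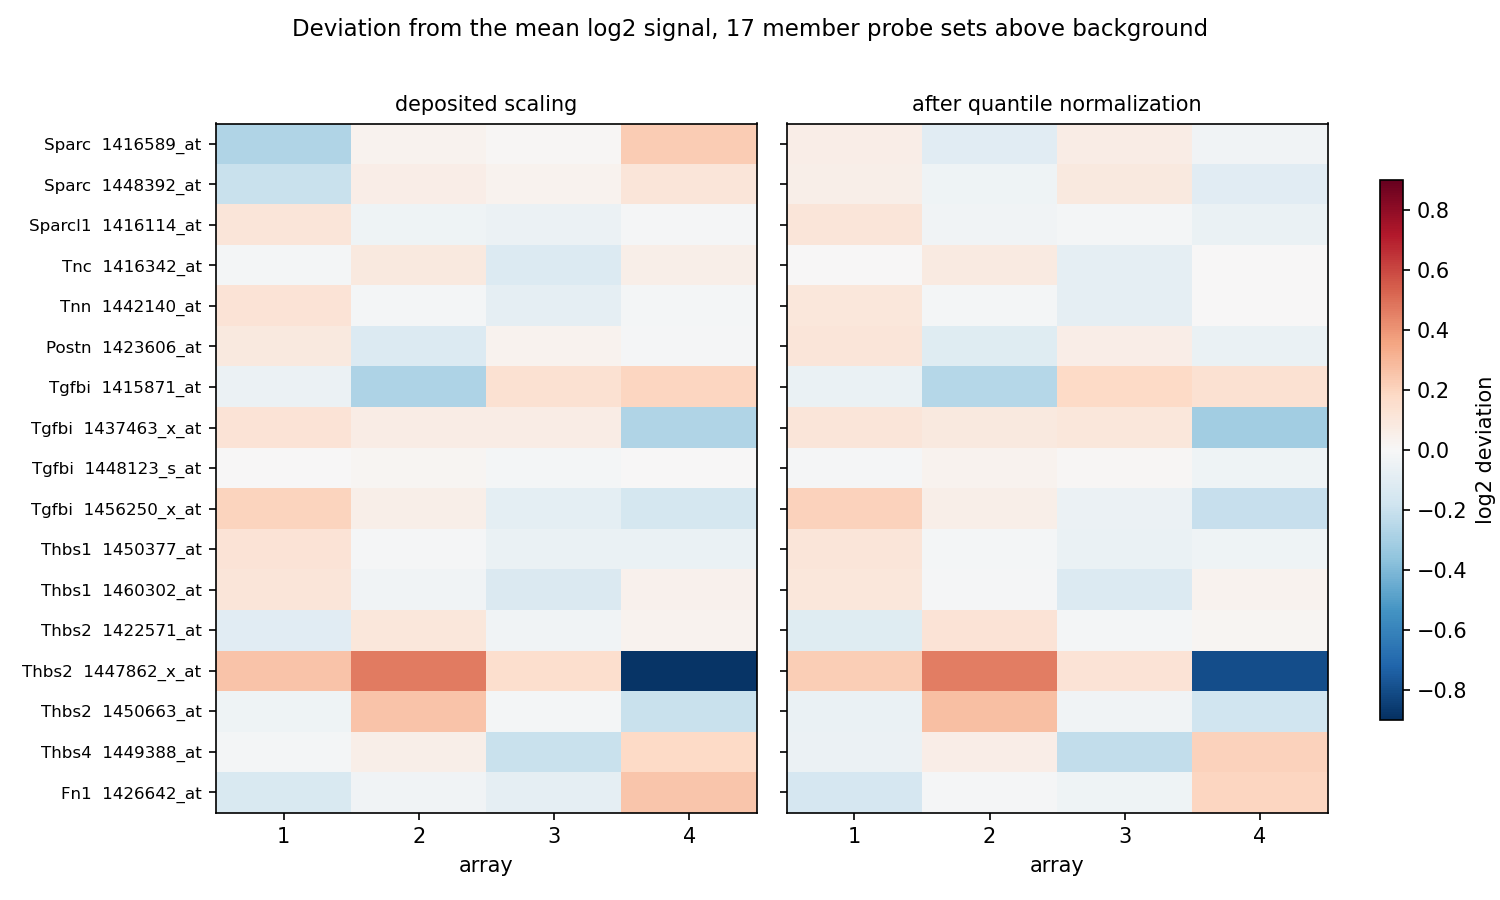
Deviation of log2 signal from each probe set's mean over the 4 arrays, for the 17 member probe sets above background, as deposited (left) and after quantile normalization (right), with blue low and red high. The low Sparc values on array 1 (-0.27 and -0.20) are near 0 on the right, while the low value of Thbs2 1447862_x_at on array 4 remains (-0.88 and -0.80).

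Relatives of the members were above background in part. Many of them had 1 probe set, as did 9182 of all 18194 genes, and 35.2% of all genes with 1 probe set passed. The list held other thrombospondins, tenascins, SPARC-like and fasciclin-domain genes and the CCN family, and 8 of 19 measured genes were above background (42.1%, beside 51.6% of all genes). Fstl1, a follistatin-like member of the SPARC group, had 60415 ± 3977 and Smoc2, a SPARC-related modular protein, 8918 ± 444. Of the CCN genes, Ccn4 (Wisp1, a Wnt-induced matricellular protein) had 28381 ± 1488 and Ccn2 (connective tissue growth factor) 6827 ± 296. Ccn1 had 2045 ± 404 and passed through 1 of its 4 probe sets. Spock2 (4160 ± 602), Stab1 (4644 ± 533) and Thbs3 (1812 ± 354) also passed.

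Among the relatives that did not pass, Comp, the cartilage thrombospondin, had 638 ± 103, and the tenascins Tnr and Tnxb had 118 ± 113 and 461 ± 477, each under the threshold on all arrays. Ccn3 (1122 ± 122) and Ccn5 (1303 ± 495) exceeded it on 2 arrays. The SPARC relatives Smoc1 (1681 ± 604) and Spock1 (1300 ± 182) exceeded it on 3. With members and relatives counted together, 2 of 4 tenascins and 4 of 5 thrombospondins were above background, beside 51.6% of all genes. Of those that passed, Tnc, Tnn, Thbs1, Thbs2 and Thbs4 are members chosen by name. Only Thbs3 is from the list of relatives. A signal under the threshold does not show that the transcript was absent.

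Genes for receptors of these proteins were above background for 15 of 22 measured (68.2%, beside 51.6% of all genes). Many had several probe sets, up to 6 for Itgb1 and Vldlr, and 82.0% of all genes with 4 or more passed. The integrin chain Itgav, which pairs with several beta chains to bind periostin, tenascin-C, Tgfbi and fibronectin, had 42587 ± 2532. Its partner chains Itgb1, Itgb5 and Itgb6 had 24986 ± 2197, 29756 ± 1955 and 5144 ± 1500, while Itgb3 (727 ± 233) and Itgb8 (703 ± 234) exceeded the threshold on 0 arrays. For fibronectin, the alpha chains Itga4 and Itga8 had 6269 ± 470 and 3431 ± 641 and passed through 1 of 5 and 1 of 2 probe sets. Itgav and Itgb1 passed through 2 of 5 and 2 of 6. Itga5, the alpha chain of the classical fibronectin receptor, had 857 ± 184 and passed on 1 array, with none of its 4 probe sets called. The thrombospondin receptor genes Cd47 and Calr had 11445 ± 726 and 72760 ± 6842, and Cd36, another thrombospondin receptor, had 881 ± 174 and passed on 1 array. Lrp1, which takes up thrombospondins, had 13219 ± 176. With the median probe set of each gene in place of any probe set, the receptor count was 11 of 22, beside 42.6% of all genes.

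Partners in matrix assembly were all above background, at 15 of 15 measured, beside 51.6% of all genes. Most partners, and most of the regulators below, had 2 or more probe sets, up to 8 for Vcan. Of all genes, 60.1% with 2 probe sets and 82.0% with 4 or more passed. Col1a2 and Col1a1 had 195252 ± 30587 and 179786 ± 33242. Lox, the collagen cross-linking enzyme, had 41860 ± 4810, and Bmp1, the procollagen protease that periostin binds, had 6790 ± 658. Of the TGF-beta ligands, receptors, Smads and mesenchymal transcription factors listed as regulators, 17 of 19 passed (89.5%, beside 51.6% of all genes). Tgfbr2 had 35160 ± 3742, the ligands Tgfb1, Tgfb2 and Tgfb3 had 26743 ± 1810, 8545 ± 406 and 16210 ± 1164, and Snai2 had 27042 ± 1165. Twist1, a transcription factor known to act on Postn, had 3319 ± 585, and Scx and Mkx were the only ones not to pass. Several of these genes are made by bone, pulp and follicle alike, and the pool does not separate them. Among bone markers Phex (34325 ± 2060) and Ibsp (24189 ± 1339) passed, while the osteocyte genes Sost (625 ± 142) and Mepe (661 ± 336) did not (2 of 4 measured, summed signal 56446 to 61827). Oral and cornified epithelial markers passed for 5 of 5, with Krt4 at 52269 ± 6646 and Krt13 at 22666 ± 3358 and a summed signal of 102546 to 118384.

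**Figure D4:**
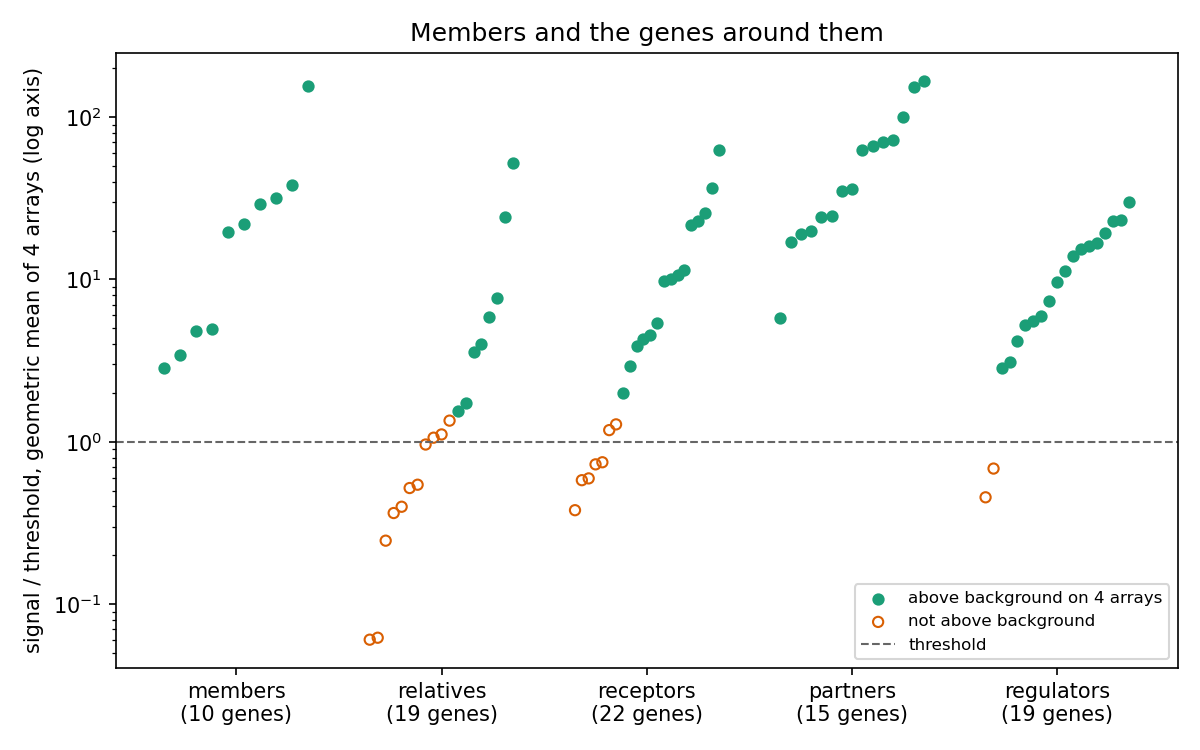
Ratio of signal to the threshold (geometric mean of 4 arrays, log axis) for the brightest probe set of each gene, in the 10 members and in the lists of relatives, receptors, partners and regulators, ordered within a list. Filled points are genes above background on all 4 arrays and open points are not. The members run from 2.83-fold (Thbs4) to 156-fold (Sparc), and open points occur among relatives, receptors and regulators.

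Reference promoter windows were searched for letters the members share. RefSeq windows of the GRCm38.p6 build, running from 250 bases before to 50 after a transcript start, were held for 7 of the 10 members (9 windows), namely Sparc, Tnc, Tnn, Postn, Tgfbi, Thbs2 and Thbs4. The motif TATATAA, an extended TATA box, was found on either strand in 3.24% of 32851 windows, and among the members in 1 window each of Postn and Tnc. In both it began 28 or 29 bases before the start, and 0.569% of all windows held it on the transcript's strand between 40 and 16 bases before the start. The 250 bases before the start lie, for Postn, at chr3:54360857-54361106 (plus strand) and, for Tnc, at chr4:64046937-64047186 (minus strand). They are shown 5′ to 3′ because they carry this motif, which is in capitals.
Postn: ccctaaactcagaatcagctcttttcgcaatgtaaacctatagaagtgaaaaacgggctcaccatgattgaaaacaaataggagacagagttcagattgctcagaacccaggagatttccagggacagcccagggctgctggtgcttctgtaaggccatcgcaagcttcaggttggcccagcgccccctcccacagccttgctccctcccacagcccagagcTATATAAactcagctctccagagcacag
Tnc: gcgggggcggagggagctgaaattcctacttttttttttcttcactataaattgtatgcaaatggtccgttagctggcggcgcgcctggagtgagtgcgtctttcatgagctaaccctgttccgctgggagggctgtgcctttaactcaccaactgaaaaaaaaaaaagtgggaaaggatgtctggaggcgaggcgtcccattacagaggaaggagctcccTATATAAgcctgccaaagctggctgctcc

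Each of these genes also had another window, from another start, without the motif. The other Tnc window (chr4:64046966-64047265, minus strand) overlaps the one shown and ends at the base before the motif. The shorter motif TATAAA, which overlaps TATATAA where an A follows, was found in windows of Postn, Tnc and Thbs2 (13.6% of all windows). The letters CCAAT were found in Postn, Thbs2 and Tnn (37.4%), GGGCGG in Tgfbi, Thbs4 and Tnc (35.7%), and the AP-1 motif TGACTCA in 0 of the 9 (5.20%), all on either strand. TATATAA was chosen for the search after the windows had been read. No array value bears on these letters, and a match is not a sign of use.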

How the data were processed

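Per the submitters' processing notes, the authors made the deposited signal intensity values with MAS5, which summarises perfect-match and mismatch probes into 1 linear value per probe set. Its version and the genome build were not given in the sources used here. With 2% of probe sets trimmed from either end, the mean signal equalled 2500 on every array, so the arrays share a scaling. Names came from the platform annotation: 34958 name 1 gene, 932 name several and 9211 are unnamed here. All 20 member probe sets matched the reference gene table by gene ID, with 0 symbols changed.

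From the intensity values, calls were made with Python 3.11.15 (pandas 2.3.3, scipy 1.17.1) and limma 3.58.1 in R 4.3.3, with a mean-variance trend and an adjusted p under 0.05, no pseudocount and no filter. Both calls were tested on simulated data. The number of arrays limits the precision. The members and gene lists were chosen with earlier results of these data known. The text names all members and, per list, the 2 brightest genes above background and up to 2 others alphabetically, and further genes named were picked after their values were seen, for their role. A list entry with no probe set naming that gene alone was not analysed here. Alternatives were other thresholds and background sets, 3 of 4 arrays, limma, quantile normalization, no shared-sequence suffixes, the median probe set and leaving out each array. Protein sequences were not used here.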

Additional observations from a re-analysis of the deposited data

Results flagged for a closer look

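A gap test asked of 72 sets of 4 values whether 1 array lay apart from the other 3. It picked out 3, where chance gives about 1 in 20 (3.6 of 72), and array 4 was the one apart in each. The sets were the 20 member probe sets, the other genes chosen by rule and the medians of the 5 gene groups. Tgfbi probe set 1437463_x_at had a log2 signal of 13.29 on array 4, against 13.63 to 13.68 on the others. Des, a muscle marker, had 9.95 on array 4, against 10.59 to 10.67. The median log2 signal of the regulator list was 13.61 on array 4, against 13.38 to 13.41.

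Probe set 1421811_at, which names Thbs1 together with Pald1 and was outside the counts, read 8977, 6765, 7569 and 8241 on arrays 1 to 4. Its mean of 7888 ± 944 (SD, n = 4) was above background on all 4 arrays. The 2 genes cannot be told apart by it.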

How the results depend on the processing

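All 10 members were above background under each of the 12 alternatives. Those that could have lost a member were the 99th percentile, the testis and retina background, limma, no shared-sequence suffixes and the median probe set. The 75th percentile, 3 of 4 arrays and leaving out an array can only keep or add calls. The count of member probe sets ranged from 13 (without shared-sequence suffixes, where only 16 were tested) to 20 (75th percentile), and Sparc 1458204_at was also called on at least 3 of 4 arrays and without array 4. Leaving out an array gave 17 to 18 probe sets (17 each time by limma), 9423 to 9842 genes and a median SD of 0.111 to 0.157, against 0.159 with all arrays. Over the alternatives, counts ranged from 7732 to 11808 for all genes, 6 to 12 for relatives, 11 to 20 for receptors, 13 to 15 for partners and 16 to 18 for regulators. Quantile normalization keeps each array's order and so cannot change calls. Brightness percentiles moved with the arrays and probe sets used. Thbs4 ranged from 63.7 (without array 4) to 75.2 (median probe set). Tnn ranged from 68.8 (without array 1) to 79.4 (median probe set). Both have 1 probe set, so their rise under the median rule came from lower values of other genes. Tgfbi was at 93.9 without shared-sequence suffixes, against 97.9 as reported. No paired analysis was possible because all 4 arrays form 1 group.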
